A study of Mus musculus with 16 samples.

Results

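The segments described here are the variable (V) segments of the mouse immunoglobulin kappa light chain locus, the Igkv genes on chromosome 6, as measured by RNA sequencing of whole mouse lung. They were chosen as the rows of the deposited expression table whose mouse symbol starts with Igkv and which reached at least 1 TPM (a transcript level per unit of length, expressed relative to everything measured in the same library) in at least 4 of 16 libraries. Of 160 Igkv rows, 81 met this rule, out of 53647 rows in the table and 17003 genes that passed the same filter. By the same rule 81 of 185 heavy chain (Ighv) segments and 3 of 3 lambda (Iglv) segments were kept. The lungs came from 4 groups: control; bleomycin, an antitumour agent given to rodents to provoke lung injury and fibrosis; bleomycin with an adenovirus labelled Ad-GFP; and bleomycin with an adenovirus labelled Ad-ATP12A, named for a proton pump subunit. The 3 exposed groups therefore share bleomycin, and the controls received neither bleomycin nor virus according to the labels. Each group held 4 libraries, 2 in each of 2 batches, and no strain, sex, age, dose, route or day is given. Nothing in the labels says that the libraries of a group came from separate animals, so the p-values measure the spread between these libraries.

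A kappa light chain gene is assembled in each developing B cell by joining 1 of many V segments to a J segment, which is then spliced to the single constant gene Igkc. A B cell and the plasma cells that descend from it carry the same joined segment, and plasma cells, the antibody-secreting form, transcribe it at very high levels. The mixture of V segments in a tissue's RNA is therefore read as a picture of which B lineage clones and how many antibody-secreting cells it holds. In bulk lung RNA, fewer cells of this lineage and less RNA per cell cannot be told apart.

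The 3′ ends of the V segments that led a library are shown because these bases begin the third complementarity-determining region (CDR3), the part of the antigen-binding site where V meets J. The reference (germline) sequence of each is from GENCODE M21 on GRCm38, chromosome 6, read 5′ to 3′, and capitals mark the bases from the conserved cysteine codon to the end of the segment.
Igkv1-117: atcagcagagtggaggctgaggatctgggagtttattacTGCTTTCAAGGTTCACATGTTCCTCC
Igkv1-110: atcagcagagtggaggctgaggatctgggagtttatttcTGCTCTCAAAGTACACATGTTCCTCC
Igkv1-135: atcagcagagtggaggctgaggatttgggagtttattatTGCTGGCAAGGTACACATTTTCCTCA
Igkv3-2: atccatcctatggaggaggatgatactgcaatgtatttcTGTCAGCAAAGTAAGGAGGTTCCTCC
Igkv5-43: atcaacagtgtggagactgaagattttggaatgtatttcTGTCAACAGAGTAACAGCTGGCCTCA
Igkv4-55: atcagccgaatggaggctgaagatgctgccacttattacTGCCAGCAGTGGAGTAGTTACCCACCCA
Igkv17-121: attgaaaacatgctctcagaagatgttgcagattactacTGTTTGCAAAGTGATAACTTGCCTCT
Igkv10-96: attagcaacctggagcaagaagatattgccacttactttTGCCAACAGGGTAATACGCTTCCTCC
Igkv19-93: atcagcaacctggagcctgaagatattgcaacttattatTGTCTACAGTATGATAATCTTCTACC
Igkv6-23: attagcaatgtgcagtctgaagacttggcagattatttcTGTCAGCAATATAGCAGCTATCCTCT
These 10 segments end in 10 different capital stretches of 26 or 28 bases, so the leading segments encode different starts of CDR3.

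A pair of family 4 segments, Igkv4-72 and Igkv4-68, stood higher in every Ad-ATP12A library than in any other library, and the 2 are near copies of each other. Over their aligned transcripts the pair was 96.2% identical, with 15 mismatches in 394 bases. Among the Igkv segments, each shared its highest number of matching bases with the other. By percent identity Igkv4-61 was slightly closer to Igkv4-68, at 96.3% with 14 mismatches in 382 bases. Of all 50-base stretches of the Igkv4-72 transcript, 75.6% occur in no other Igkv transcript, against 51.3% for Igkv4-68. Across the 81 segments this share ran from 25.7% to 100%, with a median of 74.7%, and it was under 50% for 13 of them, including Igkv1-110 at 49.1%, Igkv5-43 at 48.8% and Igkv4-55 at 46.7%. Levels of such segments are uncertain, since reads of near copies can be divided between them in the authors' estimates.

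All 81 segments kept are annotated as V genes rather than V pseudogenes, 33 on the forward and 48 on the reverse strand of the locus. Of the 79 rows left out, 60 are pseudogenes and 19 are genes, 47 were at 0 in every library, and together they held between 0.156% and 1.05% of a library's Igkv TPM. Just inside the rule, at 1 TPM or more in 4 libraries, stood Igkv9-123, Igkv9-129, Igkv8-18 and Igkv10-95, with highest values of 27.6, 8.55, 5.41 and 2.71 TPM. Just outside, in 3 libraries, stood Igkv3-9, Igkv4-90 and Igkv4-54, with highest values of 18.3, 4.01 and 3.92 TPM. At the other end, 28 segments reached 1 TPM in all 16 libraries and 44 were above 0 in all 16.

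Markers were used to check what else these lung samples held. Lung epithelium genes summed to 15639 to 147609 TPM in all libraries, and Scgb1a1, the secretory product of club cells, was under 1000 TPM in 3 of them: control batch 2 replicate 1, bleomycin batch 2 replicate 2 and Ad-GFP batch 1 replicate 1, while the other 13 had 24870.1 TPM or more. Without these 3 libraries, an alternative added after the data were seen, limma called 2 segments in bleomycin against control, 5 in the exposed groups against control and 0 in batch 2 against batch 1, against 0, 1 and 5 with them, and it called 0 in the other 2 comparisons either way. Of all genes, the fits without them called 8.73%, 22.6% and 0% in these comparisons. Thymus markers summed to 0.37 to 1.69 TPM and 0 of 6 passed the filter. The T cell genes summed to 57.1 to 155 TPM, and of the genes of lymph node stroma and vessels, Ccl21a and Cxcl13, chemokines of lymphoid tissue, rose in the exposed groups (0.98 and 1.80, limma adjusted p = 0.000499 and 0.00157), while Glycam1 and Madcam1, markers of lymph node vessels, stayed at 2.88 and 0.58 TPM or lower. Chst4, another gene of lymph node vessels, fell by 1.04 (limma adjusted p = 0.00448), from 5.10 to 8.08 TPM in control to 1.23 to 5.07 TPM in the exposed libraries. In the library with the highest Igkv total, Ad-ATP12A batch 2 replicate 2, the summed B cell genes were at 146 TPM, within the 85.9 to 324 TPM of the 16 libraries. The summed plasma cell genes were at 1223 TPM, the highest of 562 to 1223 TPM. That sum includes genes high in every library, such as Sdc1 (112 TPM or more) and Xbp1 (141 TPM or more), so it does not stand for plasma cells alone. Mzb1 was highest in this library, at 55.0 TPM, while Jchain was at 384 TPM against 410 TPM in bleomycin batch 2 replicate 1. The part of cell mixture in the segment levels was not tested.

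The summed level of the 81 segments differed 59.2-fold between the lowest and the highest library, and this spread was present inside the groups. In each list of 4 values below, the first pair is batch 1 and the second pair batch 2. Control libraries summed to 2189.97, 2613, 579 and 2477 TPM, and bleomycin libraries to 568, 380.4, 5386 and 1195 TPM. Ad-GFP libraries summed to 1476, 199, 1466 and 1247 TPM, and Ad-ATP12A libraries to 1708, 2555, 2284 and 11751 TPM. The bleomycin group thus held both low and high libraries, and the highest value, in the Ad-ATP12A library of batch 2 replicate 2, was 1.18% of all TPM in that library, against 0.0199% in the lowest, Ad-GFP batch 1 replicate 2. Of the 81 segments, 38 had their highest TPM in that Ad-ATP12A library and 12 in bleomycin batch 2 replicate 1.

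**Figure D1:**
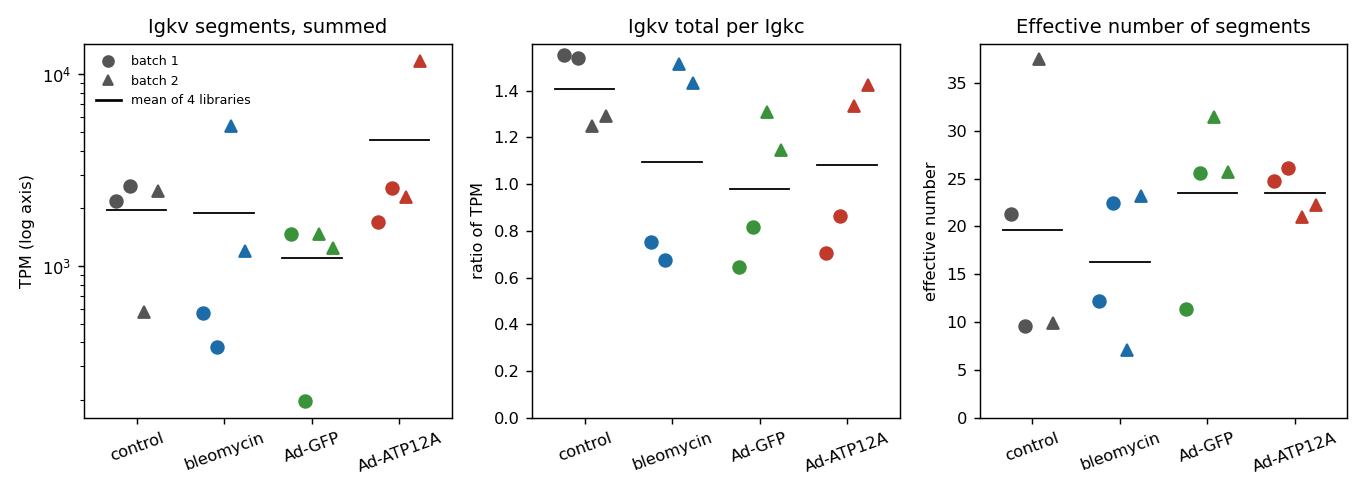
Summed Igkv level (TPM, log axis), its ratio to Igkc, and the effective number of segments in each of 16 libraries; circles are batch 1, triangles batch 2, and lines are means of 4 libraries. The Ad-ATP12A totals, 1708 to 11751 TPM, lie above the Ad-GFP totals, 199 to 1476 TPM, and the ratio to Igkc is low in the 6 bleomycin-exposed libraries of batch 1.

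Mean totals were 1965 ± 941 TPM in control, 1882 ± 2362 in bleomycin, 1097 ± 608 in Ad-GFP and 4575 ± 4797 in Ad-ATP12A (SD, n = 4 each). On the log2 scale, the bleomycin mean was lower than the control mean by 0.64 (exact two-sided permutation test over 70 relabellings, p = 0.543, and 0.921 after Benjamini-Hochberg adjustment over the 10 tests of totals and effective numbers). The direction differed between batches: the log2 total fell by 2.36 in batch 1, where both bleomycin libraries lay below both controls, and rose by 1.08 in batch 2, where the groups overlapped. Single libraries moved the difference, from -0.14 without bleomycin batch 1 replicate 2 to -1.41 without bleomycin batch 2 replicate 1. Ad-GFP and bleomycin differed by -0.34 (exact permutation p = 0.83, adjusted 0.921). The Ad-ATP12A total was higher than the Ad-GFP total by 1.94 on the log2 scale, with no overlap between the groups and with 1.95 in batch 1 and 1.94 in batch 2. Its exact permutation p of 0.0286 is the smallest that 4 against 4 libraries allow, and it was 0.286 after adjustment, so the difference did not pass. Xist, the X-inactivation transcript, was present in more Ad-ATP12A than Ad-GFP libraries, as given below. Its relation to the totals was not tested. The 3 exposed groups together differed from control by -0.22 (exact permutation within batch, p = 0.797, adjusted 0.921), with -1.57 in batch 1 and 1.12 in batch 2. Batch 2 lay 1.02 above batch 1 (exact permutation within group, p = 0.144, adjusted 0.667).

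Igkc, which encodes the constant region shared by every kappa chain, followed the V segments. Its level was 1409, 1699, 464 and 1917 TPM in control, 756, 564, 3555 and 833 in bleomycin, 2285, 244, 1121 and 1087 in Ad-GFP, and 2424, 2960.2, 1713 and 8241 in Ad-ATP12A. Over the 16 libraries the Pearson correlation of log2 levels was 0.949, a description of libraries that share batches and groups. The ratio of Igkv to Igkc nevertheless fell into separate ranges. It lay between 0.646 and 0.863 in the 6 bleomycin-exposed libraries of batch 1 and between 1.15 and 1.55 in the other 10 libraries, which are the 4 controls and the 6 exposed libraries of batch 2. The pattern was seen in the data and is given as a description, with no test.

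Outside the immunoglobulin genes, the 10 genes whose log2(TPM + 1) followed the log2 Igkv total most closely over the 16 libraries began with Jchain (r = 0.912), which joins antibody polymers, and Mzb1 (0.866), an endoplasmic reticulum protein of plasma and marginal zone B cells. Next came Cacna1h (0.831), Derl3 (0.828), which works in endoplasmic reticulum degradation, Prg2 (0.826), Oosp1 (0.791), Pou2af1 (0.780), a B cell coactivator of immunoglobulin promoters, Trbv19 (0.779), Klhl3 (0.757) and Pdk4 (0.754). B cell surface genes followed it less, with 0.330 for Cd79a, part of the B cell receptor, and 0.379 for Ms4a1, which encodes CD20. Among heavy chain constant genes r was 0.950 for Ighg2b, 0.843 for Ighg2c, 0.840 for Ighm, 0.457 for Igha and 0.445 for Ighg1. Kappa made up 76.3% to 96.3% of light chain V TPM in the 16 libraries, and Igkv TPM was 1.74 to 3.14 times Ighv TPM.

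Segment use was uneven, and the leading segment changed from library to library. Evenness is given as the effective number of segments, the number of equally used segments that would give the same concentration (the inverse of the summed squared shares). It was 21.3, 9.58, 37.5 and 9.91 in control and 12.2, 22.5, 7.07 and 23.2 in bleomycin. In Ad-GFP it was 11.4, 25.6, 31.5 and 25.7, and in Ad-ATP12A 24.7, 26.1, 21.03 and 22.3. Means were 19.6 ± 13.2, 16.2 ± 7.91, 23.5 ± 8.56 and 23.5 ± 2.31 in these 4 groups (SD, n = 4 each). None of the 5 comparisons of effective number passed an exact permutation test, with p between 0.2 for Ad-GFP against bleomycin and 1 for Ad-ATP12A against Ad-GFP, and adjusted p of 0.667 or more. The 5 libraries with the lowest effective numbers, 7.07 to 12.2, had totals of 568 to 5386 TPM, and the other 11 had totals of 199 to 11751 TPM.

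In control, the leaders were Igkv1-110 with 11.4% of Igkv TPM, Igkv1-135 with 27.5%, Igkv6-23 with 5.70% and Igkv5-43 with 26.1%. The bleomycin libraries were led by Igkv4-55 with 22.1%, Igkv19-93 with 8.55%, Igkv1-117 with 34.6% and Igkv3-2 with 12.7%. In Ad-GFP, Igkv3-2 led with 25.8%, Igkv1-117 with 8.23%, and Igkv10-96 with 6.63% and 9.93%. In Ad-ATP12A, Igkv1-117 led both first replicates with 9.13% and 13.5%, Igkv17-121 led batch 1 replicate 2 with 11.3%, and Igkv1-110 led batch 2 replicate 2 with 9.47%. A share above 20% thus occurred in 5 libraries, each time with another segment, 2 of them controls, 2 bleomycin and 1 Ad-GFP.

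**Figure D2:**
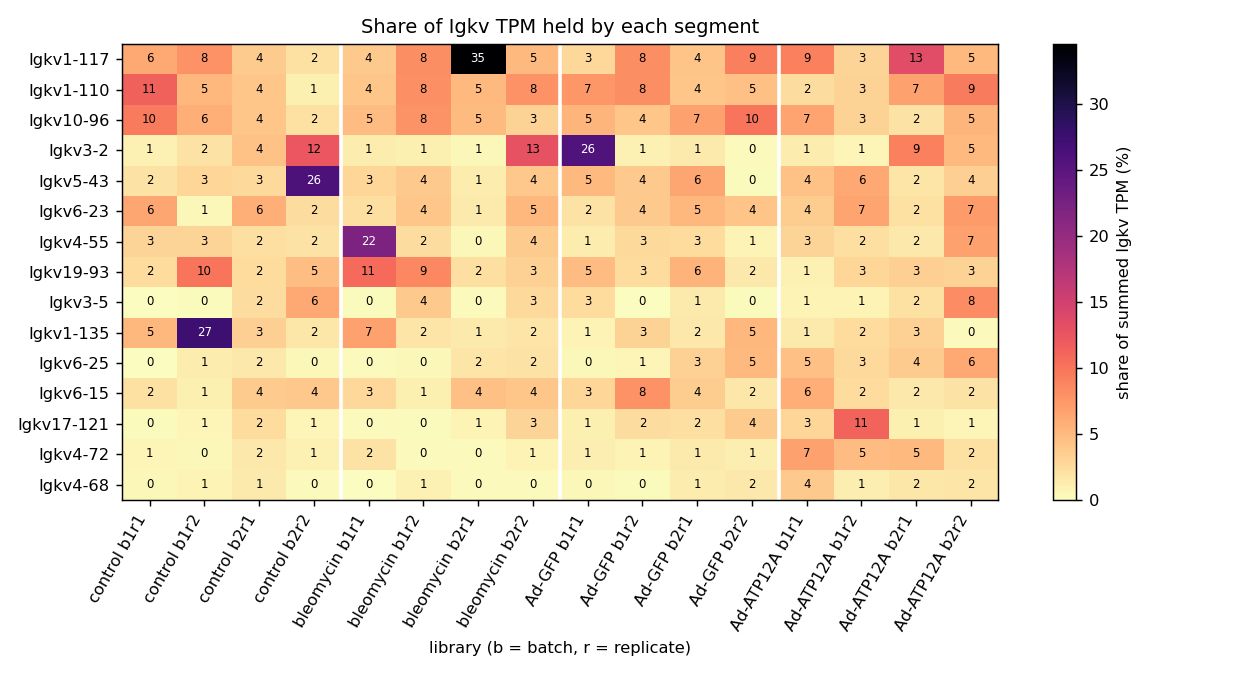
Share of summed Igkv TPM (%) held by 15 segments (rows: the 12 with the highest mean TPM, then Igkv17-121, Igkv4-72 and Igkv4-68) in 16 libraries (columns; b is batch, r is replicate). Single dark cells mark a segment that led 1 library, such as Igkv1-117 at 34.6% in bleomycin b2r1, while Igkv4-72 is raised across the 4 Ad-ATP12A columns.

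Igkv1-117 had the highest mean level, 235 TPM over 16 libraries, and its lowest and highest values were 16.3 and 1863 TPM. Its control values were 139, 206, 21.2 and 51.2 TPM, its bleomycin values 21.8, 31.1, 1863 and 59.8, its Ad-GFP values 41.5, 16.3, 61.5 and 115, and its Ad-ATP12A values 156, 76.5, 308 and 592. A single bleomycin library therefore set the bleomycin mean, and all 4 groups overlapped. Its near relative Igkv1-110, 97.5% identical, was at 23.3, 30.6, 272 and 93.9 TPM in bleomycin and reached 1113 TPM in 1 Ad-ATP12A library. Igkv1-135 was at 719 TPM in control batch 1 replicate 2 and between 6.39 and 115 TPM in the other 15 libraries. Igkv5-43 was likewise at 647 TPM in control batch 2 replicate 2, with 413 TPM in the Ad-ATP12A library with the highest total and 160.0 TPM or less elsewhere. The other segments among the 12 with the highest means had highest values of 241 TPM (Igkv6-15) to 980.1 TPM (Igkv3-5) and lowest values of 0 TPM (Igkv3-5) to 8.27 TPM (Igkv10-96).

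By family, the first number in a segment's name, family 1 held a mean of 18.5% of Igkv TPM with 7 segments kept, family 6 held 14.4% with 8, family 4 held 13.0% with 18 and family 3 held 10.9% with 7. Every one of these means covered a wide range over libraries, from 5.56% to 41.2% for family 1 and from 4.55% to 30.8% for family 4. Along the locus, the 27 segments nearest the J segments held 31.7% ± 9.57 of the TPM, the middle 27 held 24.9% ± 8.28 and the farthest 27 held 43.4% ± 12.8 (SD over 16 libraries). Igkv19-93 alone, the only member of its family, averaged 4.31%.

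Libraries were compared in segment use within and between groups. The Bray-Curtis distance between share profiles, the share of Igkv TPM that is not held in common, had a median of 45.8% over the 24 pairs within a group and 45.8% over the 96 pairs between groups. For 0 of 16 libraries was the most similar library one of its own group, and for 10 of 16 it was one of its own batch. Each library had more possible partners in its batch than in its group. Pairs of different groups had a median distance of 47.0% in the same batch and 44.8% in different batches. The closest pair was control and Ad-GFP, both batch 2 replicate 1, at 30.5%, and the farthest was control batch 2 replicate 2 and bleomycin batch 2 replicate 1 at 66.0%. The groups lay on both sides of the median between groups: the median within a group was 40.7% in Ad-GFP, 43.1% in Ad-ATP12A, 49.6% in control and 51.1% in bleomycin, over 6 pairs each. Pairs within Ad-ATP12A lay between 41.2% and 46.8%, and pairs within control between 41.0% and 63.0%. These distances are a description, with no test.

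**Figure D3:**
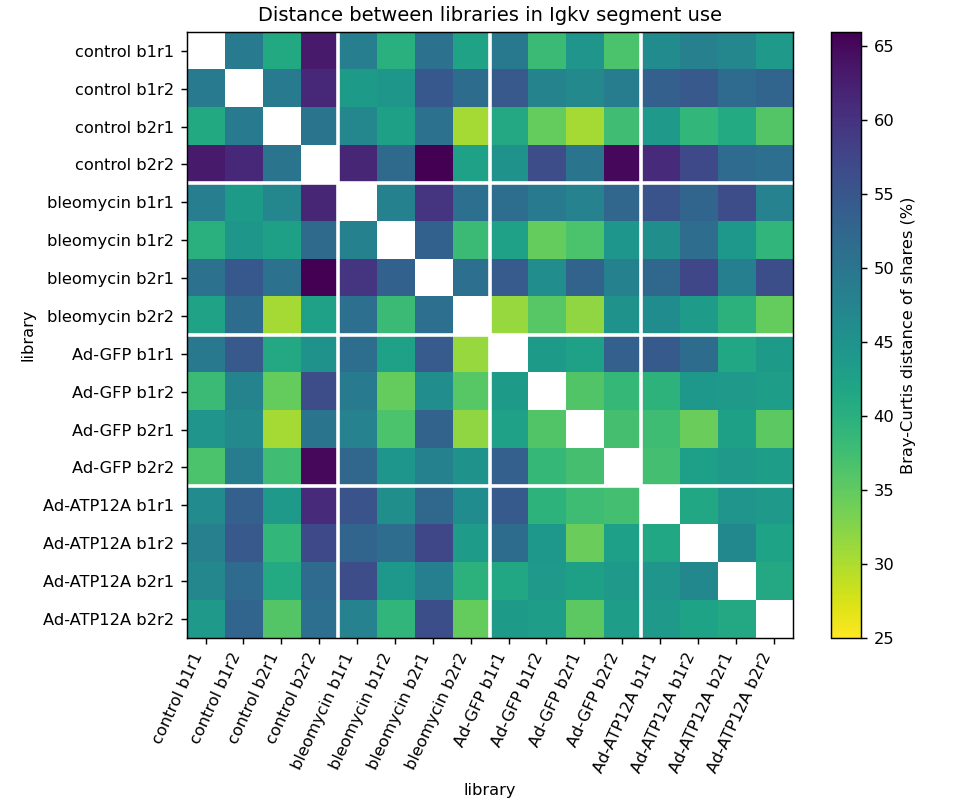
Bray-Curtis distance (%) between the Igkv share profiles of each pair of 16 libraries, in group order with white lines between groups. Light cells (small distances) lie mostly off the diagonal blocks, such as control b2r1 with Ad-GFP b2r1 at 30.5%, and the median is 45.8% both within and between groups.

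Segment levels were compared between groups with limma on log2(TPM + 1), with Benjamini-Hochberg adjustment over all 17003 genes, so fold changes of low segments are understated. The residual SD of the 81 segments, 1.43 on the log2 scale at the median, stood against 0.241 for all genes tested, so the segments varied far more between libraries of a group than most genes did.

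Bleomycin against control changed 0 of 81 segments at an adjusted p under 0.05, while 18.8% of all genes tested passed. At an unadjusted p under 0.05 there were 2 segments, both lower, against 33.5% of all genes. The median log2 fold change was -0.42 over the segments, 60 of them negative, and 0.05 over all genes. Igkv8-30 had the smallest p: it was at 11.99, 51.2, 11.4 and 74.2 TPM in control and 3.68, 1.20, 39.9 and 10.3 TPM in bleomycin, a log2 fold change of -1.76 with an SE of 0.65 (limma adjusted p = 0.0738). The groups overlapped in batch 2 only. Igkv8-21 had -1.80 (limma adjusted p = 0.115), Igkv1-122 -1.37 (0.161), Igkv4-69 -0.92 (0.199) and Igkv2-137 -1.87 (0.217). Igkv4-69, at 0.47 to 2.25 TPM in control and 0 to 0.69 TPM in bleomycin, met the filter only with control libraries. The filter thus favoured a difference in this direction, and its values are given as a description. Igkv1-122 alone was lower in all 4 bleomycin libraries (0 to 0.55 TPM) than in all 4 controls (0.76 to 5.67 TPM), a separation in that direction shown by 6.92% of all genes tested.

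The comparison was also made within each batch. In batch 1 alone, limma called 12% of all genes lower in bleomycin than in control. Of the 81 segments, it called 11 (13.6%) lower there and none higher. Among them were Igkv1-117, which fell by 2.65 on the log2 scale (SE 0.50, adjusted p = 0.0145), Igkv1-135, which fell by 4.01 (SE 1.04, adjusted p = 0.0332), Igkv9-120, which fell by 4.19 (SE 0.85, adjusted p = 0.0175), and Igkv1-88, which fell by 2.26 (SE 0.33, adjusted p = 0.00914). Another, Igkv8-18, reached 1 TPM in 4 libraries, control batch 1 replicates 1 and 2 among these (5.41 and 3.35 TPM). It met the filter only with control libraries, so the filter favoured a difference in this direction. The Igkv8-18 call is therefore given as a description. In batch 2 alone 0 segments passed, against 0.171% of all genes. The test of the difference between batches used a model that gave each of the 8 combinations of group and batch its own mean, and it called 0 of 81 segments, against 0.0647% of all genes. At an unadjusted p under 0.05 it had 25 segments, all with a higher value in batch 2, against 19% of all genes. The smallest adjusted p was 0.0822, for Igkv1-110, whose bleomycin effect was 5.42 higher in batch 2 (SE 1.33, limma). The highest bleomycin library, batch 2 replicate 1, was 1 of the 2 libraries behind each batch 2 value.

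Ad-GFP against bleomycin called 0 of 81 segments, against 0.0118% of all genes. At an unadjusted p under 0.05 there were 2, both lower, against 1.69% of all genes, and the median log2 fold change was -0.05. Igkv2-109 had the smallest p, with 19.3, 2.30, 14.1 and 9.90 TPM in bleomycin and 2.09, 0.72, 3.51 and 1.46 TPM in Ad-GFP (log2 fold change -1.89, SE 0.71, limma adjusted p above 0.99). These groups overlapped only through the second bleomycin library of batch 1.

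Ad-ATP12A against Ad-GFP also called 0 of 81 segments, against 0.00588% of all genes, but most segments lay higher in Ad-ATP12A. The log2 fold change was positive for 76 of 81, with a median of 1.36, against -0.01 over all genes tested. At an unadjusted p under 0.05 there were 24 segments, all higher, where 2.43% of all genes passed in either direction and 1.16% passed as higher. The segments are parts of 1 total, which is 1.94 higher on the log2 scale in this comparison, so their changes are not separate observations.

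**Figure D4:**
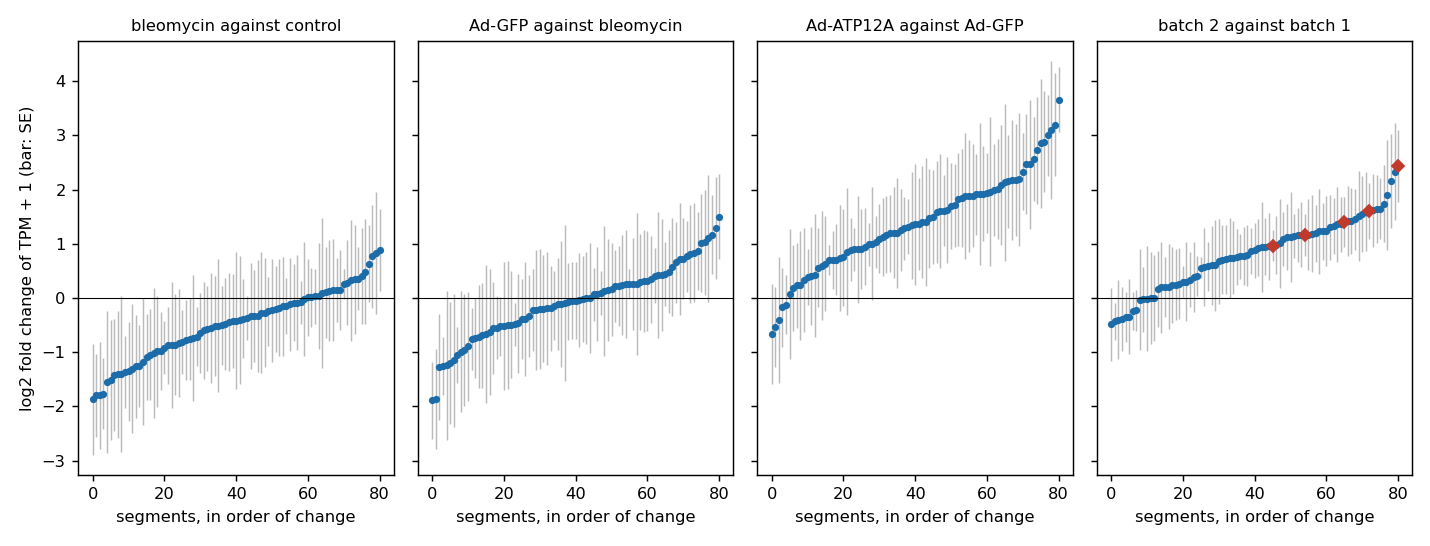
Log2 fold change of TPM + 1 (dots; bars are SE) of the 81 segments in bleomycin against control, Ad-GFP against bleomycin, Ad-ATP12A against Ad-GFP and batch 2 against batch 1, each ordered from lowest to highest. Red diamonds are segments with a limma adjusted p under 0.05, which among these 4 panels occur in the last (5 of 81); in Ad-ATP12A against Ad-GFP 76 of 81 values are above 0.

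Igkv4-72 (ENSMUSG00000076545) was at 114, 122, 115 and 245 TPM in Ad-ATP12A. It was at 17.5, 1.53, 21.2 and 14.3 TPM in Ad-GFP, at 10.8, 1.31, 15.1 and 9.63 TPM in bleomycin and at 12.7, 12.3, 9.10 and 22.6 TPM in control. All 4 Ad-ATP12A libraries lay above all 12 others, which overlapped among themselves. The log2 fold change against Ad-GFP was 3.66 (SE 0.59), with 4.12 in batch 1 and 3.20 in batch 2, an unadjusted p of 2.33e-05 and a limma adjusted p of 0.198, so it did not pass. Its share of Igkv TPM was 6.67%, 4.79%, 5.04% and 2.09% in Ad-ATP12A and 0.280% to 1.89% in the 12 other libraries, so the share was higher in each Ad-ATP12A library as well, narrowly in the library with the highest total. With the log2 Igkv total as a covariate, a fit added after the data were seen, the log2 fold change was 2.57 (limma adjusted p = 0.648). Igkv4-72 ranked 2nd, 4th, 5th and 12th of the 81 segments in the Ad-ATP12A libraries and between 13th and 46th in the others.

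Igkv4-68 (ENSMUSG00000076549), its near copy, was at 65.8, 28.5, 39.9 and 219 TPM in Ad-ATP12A and at 0.32 to 19.2 TPM in the other 12 libraries. Its log2 fold change against Ad-GFP was 2.998 (SE 0.75, limma adjusted p above 0.99). Its share, 3.85%, 1.12%, 1.75% and 1.87%, overlapped the 0.130% to 1.52% of the other libraries. The pair shares long stretches, and how far reads of 1 were assigned to the other was not tested. Igkv4-55, another close relative at 95.3% identity to Igkv4-72, was at 51.6, 56.2, 36.0 and 796 TPM in Ad-ATP12A, at 18.4, 5.35, 36.9 and 8.90 TPM in Ad-GFP, at 125, 8.88, 26.9 and 44.1 TPM in bleomycin and at 67.2, 80.9, 13.2 and 48.3 TPM in control. Of the Ad-ATP12A values of Igkv4-55, 3 lay above all Ad-GFP values and the lowest lay just under the highest of these, and the group overlapped bleomycin and control.

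**Figure D5:**
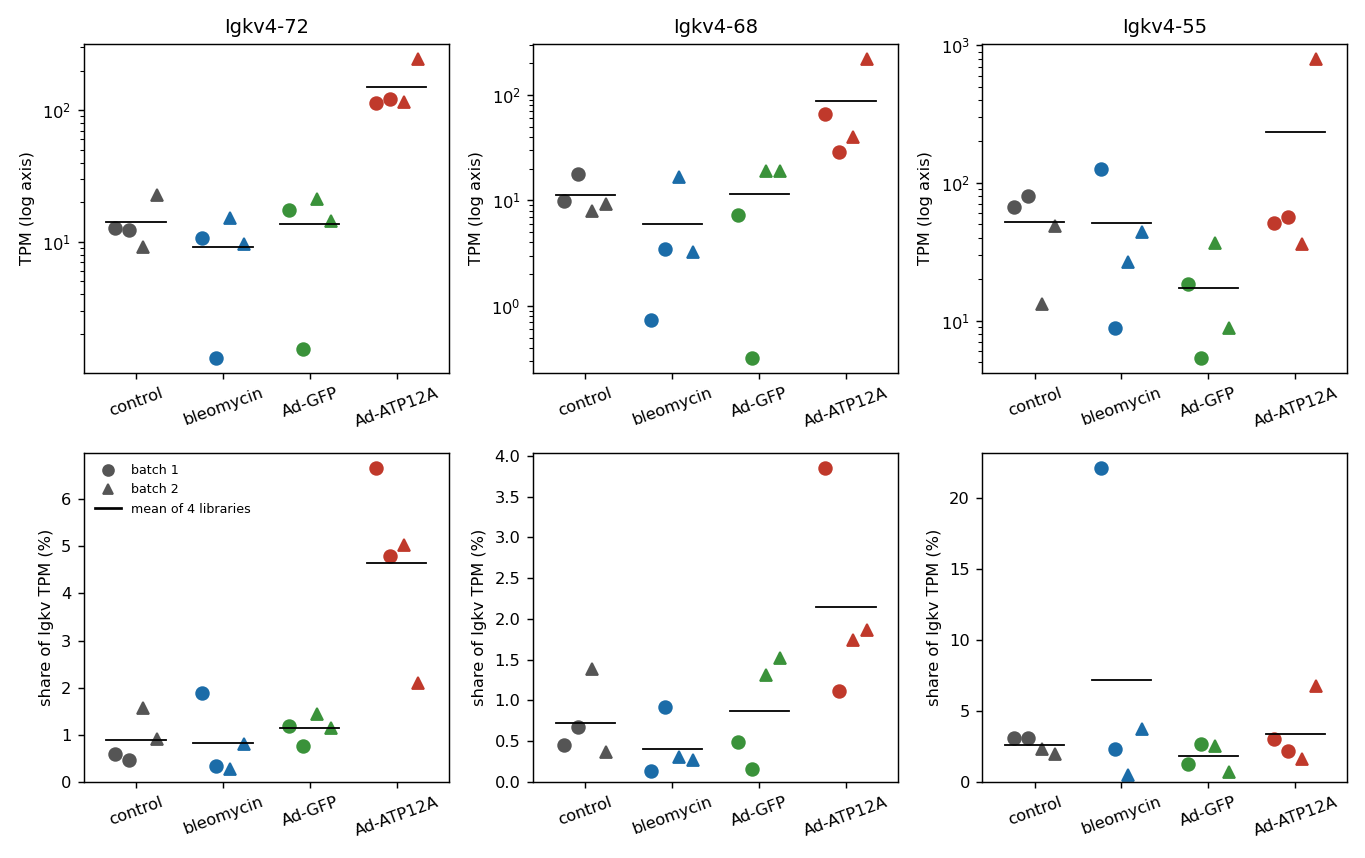
TPM (upper row, log axes) and share of Igkv TPM (lower row, %) of the 3 related segments Igkv4-72, Igkv4-68 and Igkv4-55 in 16 libraries; circles are batch 1, triangles batch 2, lines are means of 4. Igkv4-72 lies at 114 to 245 TPM in Ad-ATP12A and at 22.6 TPM or lower in all other libraries, and Igkv4-55 does not separate the groups.

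All 4 Ad-ATP12A values exceeded all 12 others for 6 of 17003 genes (0.0353%), and 2 of these were Igkv segments, the pair just described. All 4 Ad-ATP12A values exceeded all 4 Ad-GFP values for 0.312% of all genes and for 3 segments, the pair and Igkv6-25. Igkv6-25 was at 77.0, 68.5, 84.5 and 732 TPM in Ad-ATP12A and 6.13, 1.13, 48.9 and 62.7 TPM in Ad-GFP (log2 fold change 3.20, SE 0.94, limma adjusted p above 0.99). Bleomycin batch 2 replicate 1, at 98.2 TPM, lay inside its Ad-ATP12A range. Igkv5-48 and Igkv17-127 completed the 5 smallest p, with log2 fold changes of 2.56 and 2.33 and overlapping groups. Xist was at 10 TPM or more in 3 of 4 Ad-ATP12A and 1 of 4 Ad-GFP libraries. The Ad-ATP12A library without it, batch 2 replicate 1, had 115 TPM of Igkv4-72 and an Igkv total of 2284 TPM. In the Ad-GFP library with it, batch 1 replicate 1, these values were 17.5 and 1476 TPM, the latter the highest total of its group. The highest total of all, 11751 TPM in Ad-ATP12A batch 2 replicate 2, came with 74.4 TPM of Xist. The next highest, 5386 TPM in bleomycin batch 2 replicate 1, came with 144 TPM, and the other bleomycin libraries had 0.31 TPM of Xist or less. In control, batch 1 replicate 1 had 118 TPM of Xist and a total of 2189.97 TPM, inside the range of its group. The relation of Xist to the totals was not tested.

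The 3 exposed groups against control called 1 of 81 segments, against 29.7% of all genes. At an unadjusted p under 0.05 there were 2, against 41.7% of all genes, and the median log2 fold change was 0.02 over segments. The segment called was Igkv12-38, a low one (limma adjusted p = 0.0371), which met the filter of 1 TPM only through exposed libraries, so the filter favoured a difference in this direction and the call is given as a description. It was listed at 0 in all 4 controls and in 5 of the 12 exposed libraries, and at 0.59 to 2.95 TPM in the other 7, of which 4 were Ad-ATP12A. Leaving out any of 5 single libraries ended the call: control batch 2 replicates 1 and 2, bleomycin batch 1 replicates 1 and 2, and Ad-ATP12A batch 2 replicate 1, with limma adjusted p of 0.0524 to 0.121. In batch 1 alone 10 segments (12.3%) were lower in the exposed groups, against 15.8% of all genes called lower. Igkv8-18, which met the filter only with control libraries, was among the 10, and its call is given as a description. Beside the segments, 10 of 15 B cell genes fell and 1, Cd72, rose in the 3 exposed groups against control, all 16 libraries. The log2 fold changes were -1.26 for Ms4a1 and -1.16 for Cd79a (limma adjusted p = 0.0188 and 0.0115). Ms4a1 was at 18.9 to 21.4 TPM in control and at 4.39, 6.17, 18.1 and 18.3 TPM in bleomycin. It was at 2.86 to 7.92 TPM in Ad-GFP and 4.15 to 16.4 TPM in Ad-ATP12A. Of 16 plasma cell genes 5 rose, among them Slamf7 at 1.24 and Edem1 at 0.52, 1 fell (Prdm1, -0.59) and 10 did not pass, Jchain and Mzb1 among these. Of 11 constant genes tested, Ighg1, which encodes the IgG1 heavy chain, rose by 4.67 (SE 0.92, limma adjusted p = 0.00244). Ighd fell by 1.23 and 9 did not pass, Igkc among them (0.26, limma adjusted p = 0.768). Ighg1 was at 1.63, 1.96, 25.7 and 2.43 TPM in control and at 3.09, 1.66, 299 and 5.09 TPM in bleomycin. It was at 47.4 to 427 TPM in Ad-GFP and 289 to 3271 TPM in Ad-ATP12A. In bleomycin against control, without the virus groups, 0 of the 11 constant genes passed. Of the 15 B cell genes, 0 fell there and 1 rose.

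Batch 2 against batch 1 called 5 of 81 segments, all higher, against 18.5% of all genes in either direction and 16.4% called higher. At an unadjusted p under 0.05 there were 25, against 34.6% of all genes. The 5 were Igkv6-25 (log2 fold change 2.43, limma adjusted p = 0.0250), Igkv4-63 (1.61, 0.0445), Igkv8-30 (1.41, 0.0476), Igkv1-99 (1.16, 0.0480) and Igkv1-133 (0.97, 0.0309). Of these, Igkv1-99 and Igkv1-133, at 9.78 and 5.88 TPM or lower, met the filter of 1 TPM only with batch 2 libraries. The filter thus favoured a difference in this direction, and their calls are given as a description. Leaving out single libraries moved the batch count, given here with the share of all genes called in the same fit in parentheses. It was 0 without bleomycin batch 1 replicate 2 (9.53%), Ad-GFP batch 1 replicate 2 (12.4%) or Ad-ATP12A batch 2 replicate 2 (12.9%). Without Ad-ATP12A batch 1 replicate 1 it was 1 (10%), and without control batch 1 replicate 1 it was 12 (21.8%). The median log2 difference was 0.88 over segments, 68 of 81 positive, against 0.09 over all genes.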

How the data were processed

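RNA was extracted from mouse lung with a column kit, per the labels' protocols, and sequenced as 16 libraries in 4 groups and 2 batches. The deposited values are log2(TPM + 1) per gene, made by the authors. STAR, RSEM and the builds GRCm39 and mm39 are named, per the submitters' processing notes, while versions, annotation, strand setting and filters are not given in the sources used here. Read depth is unknown, since TPM keeps none, so no interval or count floor could be given, and 15537 to 16336 genes reached 1 TPM per library. Values were turned back to TPM by undoing the log2, and the lowest and highest library sums were 999999 and 1000000 TPM.

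The members and gene lists were chosen with earlier results of these data known. The 17003 genes that reached 1 TPM in 4 or more libraries were fitted with limma 3.58.1 (R 4.3.3, trended prior variance) on log2(TPM + 1) with group and batch as terms, two-sided, with Benjamini-Hochberg adjustment over all of them and a threshold of 0.05. Fold changes come from this fit unless a batch is named. Totals (as log2) and effective numbers were compared by exact two-sided permutation tests, within batch or group where 16 libraries entered. Python 3.11.15, pandas 2.3.3, numpy 2.4.6, scipy 1.17.1 and matplotlib 3.10.9 were used, and the fit was tested on simulated data. Germline sequences came from GENCODE M21 on GRCm38, matched by symbol for all 81 segments and aligned with Biopython 1.88. That build differs from the authors', so no coordinates are given.

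Segments named are the 12 with the highest mean TPM, the leader of each library, the 5 smallest p in each comparison, and those next to the filter. Igkv4-55, Igkv1-88 and others called in batch 1 alone were described after their values were seen. Alternatives were another pseudocount (0.1), other filters, quantile and median-ratio scaling, fits on fewer libraries or other terms, and leaving out each library. The lists of germinal centre genes (2 of 7 tested rose and 1 fell in the exposed groups), T cell genes (2 of 10 rose), B cell precursor genes (0 of 2 passed), lymph node stroma and vessel genes (3 of 6 rose and 1 fell) and lung epithelium genes (1 of 5 fell) were read from the same fit. Of all 17003 genes tested, 3065 rose and 1988 fell in the exposed groups against control. In bleomycin against control 1 of 15 B cell and 3 of 16 plasma cell genes rose, where 2247 of all genes did. In the same comparison 0 genes of either list fell, where 954 of all genes did. In Ad-GFP against bleomycin and Ad-ATP12A against Ad-GFP 0 genes of any list passed, where 2 and 1 of all genes did. Some genes and sequences are not reported here.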

Additional observations from a re-analysis of the deposited data

Results flagged for a closer look

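Within groups of 4 libraries, a library was marked when its gap to the nearest other exceeded Dixon's critical value for the group's range. Segment levels and totals were taken as log2, and effective numbers and Igkv to Igkc ratios as they are. Chance marks about 1 group in 20 of unselected values, and 12 marks arose over 148 groups examined. The 34 segments examined were partly chosen for their values here, as leaders of a library or by a small p. They also share the library totals, so that rate does not apply to this set. Of the 12 marks, 3 (Igkv12-38 in bleomycin and Igkv4-69 in bleomycin and in Ad-GFP) were fixed by the other 3 libraries being listed at 0. The Igkv total of control batch 2 replicate 1, 578.62 TPM, lay far below the other controls (2189.97 to 2613 TPM), and that of Ad-GFP batch 1 replicate 2, 198.53 TPM, lay far below the other Ad-GFP libraries (1247 to 1476 TPM).

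The same Ad-GFP library was lowest for Igkv10-96, at 8.27 TPM against 79.6 to 124 TPM, and for Igkv4-72, at 1.53 TPM against 14.3 to 21.2 TPM. Ad-ATP12A batch 2 replicate 2 was highest for Igkv4-55 at 795.5 TPM (36.0 to 56.2 TPM in the others), for Igkv6-25 at 732.46 TPM (68.5 to 84.5 TPM) and for Igkv4-72 at 245.36 TPM (114 to 122 TPM). Bleomycin batch 2 replicate 1 was highest for Igkv10-96 at 262.99 TPM (27.3 to 38.2 TPM), for Igkv12-38 at 1.04 TPM and for Igkv4-69 at 0.69 TPM, where the other bleomycin libraries were listed at 0. Igkv4-69 was likewise at 1.04 TPM in Ad-GFP batch 2 replicate 1 only, and Igkv5-45 at 2.54 TPM in Ad-ATP12A batch 1 replicate 2 against 0.34 to 0.56 TPM. These marks fall mostly on the libraries with the lowest or highest totals of their group.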

How the results depend on the processing

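The count of 0 segments in Ad-ATP12A against Ad-GFP and in Ad-GFP against bleomycin was 0 under all 13 alternatives and 16 leave-outs. In what follows, the share of all genes called in the same fit stands in parentheses. Bleomycin against control, 0 in all libraries (18.8%), gave 1 with only the libraries compared (19.9%), 11 in batch 1 alone (26.4%), 1 with the log2 Igkv total as a covariate (14.8%), 2 without the 3 libraries low in Scgb1a1 (8.73%), and 0 to 1 leaving out single libraries (8.77% to 21.8%). The exposed groups against control, 1 (29.7%), gave 0 with no filter (12.6%), a filter of 5 TPM (33.1%) or no batch term (23.6%), 10 in batch 1 alone (33%), 4 with the total as a covariate (28.8%), 3 with an Xist term (33.2%), 5 without the low-Scgb1a1 libraries (22.6%) and 0 to 3 leaving out single libraries (20% to 32%). Batch, 5 (18.5%), gave 0 with no filter (5.33%), with the total as a covariate (5.3%) or without the low-Scgb1a1 libraries (0%), 2 with quantile (12.4%) or median-ratio scaling (11.3%), 18 with an Xist term (14.9%) and 0 to 12 leaving out single libraries (9.53% to 29.3%). With no filter more genes were tested (35205); other causes were not tested.

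Replicate numbers did not pair the libraries (12 correlations of deviations, -0.16 to 0.21, 1 over 0.1). With the replicate block the batch count was 2 (16%), and the Ad-ATP12A total kept 1.94 with an exact permutation p of 0.125, the smallest that pairing allows. That total had p = 0.0556 relabelling within batch, 2.21 with p = 0.0571 without the low-Scgb1a1 libraries, and 1.24 to 2.26 leaving out single libraries (exact permutation p 0.0286 to 0.0857). The batch total rose to 1.92 (exact permutation p = 0.0247) without the low-Scgb1a1 libraries and was 0.66 to 1.38 leaving out single ones.

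Directions turned for the effective number: bleomycin minus control was 0.0731 without Igkv1-117, 0.318 without the low-Scgb1a1 libraries and -6.68 to 2.64 leaving out single libraries. Ad-ATP12A minus Ad-GFP was 0.755 without Igkv1-117 and -4.05 to 2.65 in leave-outs, exposed minus control -5.39 to 8.42, and batch -4.15 without the low-Scgb1a1 libraries and -0.358 to 6.55. Totals turned in leave-outs for Ad-GFP minus bleomycin (-0.85 to 0.43) and exposed minus control (-0.75 to 0.30), while bleomycin minus control kept its sign (-1.41 to -0.14). Igkv4-72 kept its direction throughout, with log2 fold changes of 2.57 to 4.12 and limma adjusted p of 0.0674 or more.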
